A study of Mus musculus with 2 samples.

Results

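The proteasome is the protease that degrades proteins tagged with ubiquitin, and its subunits are encoded by genes whose symbols begin with Psm. The members described here are the genes whose symbol begins with Psm, a letter from a to g and a digit. There are 49 of them among 16428 genes with a read, and all 49 have a row in both gene tables. The rule reads the symbol only. A name match brought in Psmc3ip, a cofactor of homologous recombination named for its binding to Psmc3, which is not a proteasome subunit.

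The libraries were made from macrophages sorted from C57BL/6J mice that carried an MLL-AF9 acute myeloid leukaemia, a model driven by a fusion oncogene. GFP-labelled leukaemia cells from leukaemic mice were given at 500000 cells per mouse to unirradiated recipients aged 6 to 8 weeks. Recipients lived for 25 to 30 days, and cells were sorted on day 15 from bone marrow and from spleen, with 1 RNA-seq library per tissue. Both tissues came from leukaemic mice, and no healthy control was analysed here. Neither the number of mice behind a library nor the sort markers could be read from the sources used here.

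The barrel-shaped core particle is built of alpha rings and beta rings, and 3 of its beta subunits cut peptide bonds. In the standard form these are Psmb6, Psmb7 and Psmb5. In cells exposed to interferon-gamma and in many haematopoietic cells they are replaced during assembly by Psmb9, Psmb10 and Psmb8, which makes the immunoproteasome and alters which peptides are cut for display on MHC class I. A regulatory particle of ATPases and lid subunits caps the core, binds ubiquitin chains, unfolds the substrate and feeds it in. PA28, a ring of Psme1 and Psme2 that is also interferon-inducible, is an alternative cap.

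With 1 library per tissue there was no replicate check and no test. Every difference below is between 2 libraries, and intervals are exact 95% intervals that cover counting error only. After scaling, the libraries had effective depths of 9405947.0 and 8457857.0 uniquely placed reads for bone marrow (marrow below) and spleen. Levels are given as CPM (reads per gene on a common library size) when libraries are compared. They are given as the deposited RPKM, which is also divided by gene length, when genes are compared. Differences are bone marrow minus spleen on log2(CPM + 1). In bulk RNA, fewer cells of a type and less RNA per cell cannot be told apart.

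The proteasome genes split by role. Leaving out the tissue-specific core subunits Psma8 and Psmb11, which had few reads, all 31 structural subunits of the core and regulatory particles outside the immunoproteasome had higher CPM in marrow, with differences from 0.09 to 1.08 and a median of 0.54 on the log2 scale. The 3 immunoproteasome subunits and the PA28 genes Psme1 and Psme2 all had higher CPM in spleen, with differences from -0.73 to -0.38 and a median of -0.51. The median over all 12970 measured genes was 0.03, with 6662 of them higher in marrow and 6308 in spleen. Over all 49 members the median was 0.48, with 43 members higher in marrow, Psma8 and Psmc3ip among them, and 6 in spleen. Psmb11 was the sixth of these, with a difference of -0.24 from 8 reads in marrow and 10 in spleen, and Psma8 had a difference of 1.61 from 26 and 2 reads. Each met the floor for a measured gene, 1 CPM and 10 reads, only in the library where it was higher, so neither direction carries weight. The directions of all members were the same under the other scalings tried. A changed pseudocount or floor cannot reverse a direction, and a floor of 10 CPM leaves out Psma8 and Psmb11. The libraries also differed in markers of other cells, given in full at the end: summed B cell markers were at 445 CPM in marrow and 5232 CPM in spleen, and summed granulocyte markers at 48810 and 2249 CPM. Their part in the split was not tested.

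Few members differed by 2-fold, counted here and below on the log2(CPM + 1) scale, which lowers the ratio of genes with few reads. Only Psmd1, Psmg1, Psma8 and Psmc3ip were at least 2-fold higher in marrow, 8.16% of the members against 14.1% of all measured genes. Psma8 passed the floor of 1 CPM and 10 reads through its marrow value alone, so its call carries no weight, and 3 members are left without it. No member was at least 2-fold higher in spleen, against 14.6% of all measured genes. At 1.5-fold the counts were 18 towards marrow and 2 towards spleen, against 24.7% and 25.1% of all measured genes, and at 4-fold they were 0 and 0, against 4.42% and 4.09%, although the plain CPM ratios of Psma8 and Psmc3ip were above 4. The counting interval of the ratio lay above equal levels towards marrow for 39 members (79.6%), against 38.2% of all measured genes. Towards spleen it did so for 5 members (10.2%), against 35.9%. Psma8, which carries no weight here either, and Psmc3ip are among these 39 and among the 18 at 1.5-fold. Without Psmc3ip, which is not a subunit, the counts towards marrow were 38 (79.2%) and 17. Members had more reads than most genes, with a median of 1074 reads in marrow against 293 for all measured genes, and more reads narrow these intervals. At least 50 CPM in a library was reached by 39 members, Psma8 and Psmc3ip not among them. Their counts were 32 (82.1%) and 5 (12.8%), against 47.0% and 40.2% of the 5652 genes at that level. The interval included equal levels for Psma3, Psmb1, Psmg4, Psmf1 and Psmb11.

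**Figure D1:**
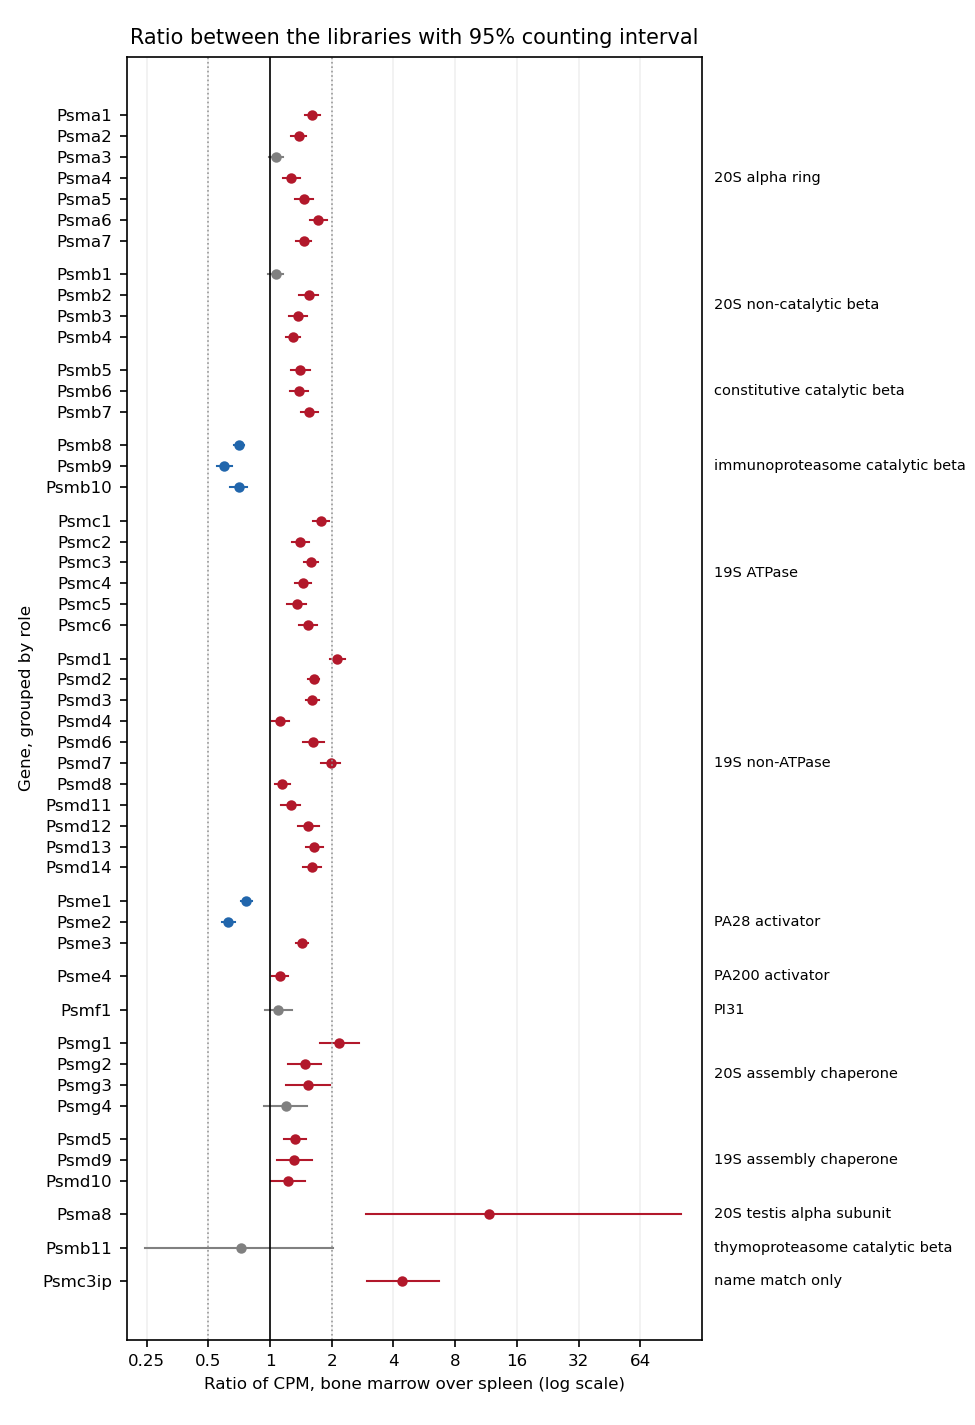
Ratio of CPM, bone marrow over spleen, for each of the 49 members on a log axis, grouped by role. Points are the 2-library ratios and bars the exact 95% counting intervals, red where the interval lies above 1, blue where below and grey where it includes 1, and dotted lines mark 2-fold. Psmb8, Psmb9, Psmb10, Psme1 and Psme2 are the 5 blue genes.

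The members together took 52515 reads in marrow and 37229 in spleen, which is 0.546% and 0.450% of each library. The 3 immunoproteasome subunits went the other way, with 0.0379% of reads in marrow (0.0367% to 0.0391%) and 0.0587% in spleen (0.0571% to 0.0604%). The 3 standard catalytic subunits had 0.0311% (0.0300% to 0.0322%) and 0.0224% (0.0214% to 0.0235%). In bone marrow the immunoproteasome genes made up 51.5% of the summed RPKM of the 6 catalytic genes, and in spleen 69.8%.

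Psmb8 encodes the chymotrypsin-like subunit that takes the place of Psmb5. Psmb8 stood at 207 CPM in marrow and 293 CPM in spleen, 1.42-fold higher in spleen (1.34 to 1.505). Psmb5 stood at 96.1 CPM in marrow and 68.6 CPM in spleen, 1.40-fold higher in marrow (1.26 to 1.56). The pair thus moved in opposite directions. Per gene length, Psmb8 made up 60.5% of the pair in marrow (58.6% to 62.4%) and 75.3% in spleen (73.6% to 77.0%).

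Psmb9 takes the place of Psmb6, the caspase-like subunit. Its level was 92.9 CPM in marrow and 155 CPM in spleen, and its 1.67-fold ratio towards spleen (1.53 to 1.82) was the largest towards spleen among the 49 members. For Psmb6 the levels were 98.1 CPM in marrow and 71.1 CPM in spleen, 1.38-fold higher in marrow (1.24 to 1.53). The share of Psmb9 in its pair, per gene length, was 54.9% in marrow (52.6% to 57.2%) and 73.7% in spleen (71.8% to 75.6%).

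Psmb10 takes the place of Psmb7, the trypsin-like subunit. It was counted at 87.9 CPM in marrow and 125 CPM in spleen, 1.42-fold higher in spleen (1.30 to 1.56). Psmb7 was counted at 124 CPM in marrow and 79.7 CPM in spleen, 1.56-fold higher in marrow (1.41 to 1.71). Psmb10 was the minor partner of its pair in marrow, at 35.1% per gene length (33.1% to 37.2%), and the major partner in spleen, at 54.5% (52.1% to 56.9%). Its deposited coverage was 92.4% of the gene's length in marrow and 81.7% in spleen.

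The ratio of immunoproteasome to standard subunit shifted by a like factor in the 3 pairs. From marrow to spleen it was 1.99-fold higher for Psmb8 over Psmb5 (1.76 to 2.24), 2.31-fold higher for Psmb9 over Psmb6 (2.01 to 2.64) and 2.22-fold higher for Psmb10 over Psmb7 (1.94 to 2.53). These intervals overlap. The mean log2 difference was -0.58 for the 3 immunoproteasome genes and 0.52 for the 3 standard genes, a gap of -1.10 (-1.21 to -0.997). This comparison does not depend on how the libraries are scaled to each other, apart from the pseudocount. Only uniquely placed reads were counted, and RefSeq lists pseudogenes named for Psmb5, Psmb6 and Psmb7, so the absolute shares are less certain than the shift between libraries.

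**Figure D2:**
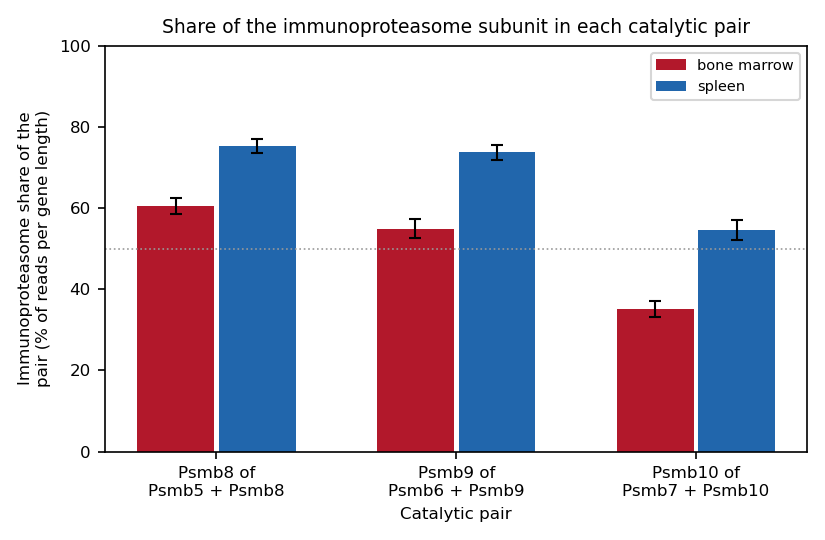
Share of the immunoproteasome subunit in each of the 3 catalytic pairs, in percent of reads per gene length, for 1 bone marrow library (red) and 1 spleen library (blue). Error bars are exact 95% binomial intervals of the reads, the dotted line marks equal parts, and in each pair the spleen share is higher, from 54.5% to 75.3% against 35.1% to 60.5%.

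Psmb8 and Psmb9 lie in the MHC class II region, where in RefSeq the gene order is Psmb9, Tap1, Psmb8 and Tap2. Tap1 and Tap2 encode the transporter that carries proteasome-made peptides into the endoplasmic reticulum. Tap1, the immediate neighbour of Psmb9, stood at 236 CPM in marrow and 450 CPM in spleen, and Tap2 at 218 and 294 CPM. The 4 neighbours were thus all higher in spleen. Psmb9 and Tap1 are read in opposite directions from a shared stretch of 225 bases, chr17:34187331-34187555 in GRCm38.p6, shown here on the minus strand, in the direction of Psmb9. The capitals mark a GC box (GGGCGG) and, nearest the start of Psmb9, a CCAAT box on the opposite strand.
Psmb9: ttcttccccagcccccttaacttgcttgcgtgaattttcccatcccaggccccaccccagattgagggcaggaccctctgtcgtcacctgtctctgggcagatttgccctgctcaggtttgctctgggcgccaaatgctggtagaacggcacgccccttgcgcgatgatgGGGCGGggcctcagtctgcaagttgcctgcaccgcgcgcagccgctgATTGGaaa

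The 150 bases before the start of Psmb8 (chr17:34198045-34198194, plus strand) are shown because they hold a GAS-type match, an element tied to the response to interferon-gamma. The capitals mark that match. For contrast, the 150 bases before Psmb5 (chr14:54617996-54618145, minus strand) and the last 30 before Psmb6 (chr11:70525327-70525356, plus strand) are printed with the core of an antioxidant response element in capitals, the element through which NRF1 and NRF2 act on proteasome genes. All sequences are from RefSeq, assembly GRCm38.p6.
Psmb8: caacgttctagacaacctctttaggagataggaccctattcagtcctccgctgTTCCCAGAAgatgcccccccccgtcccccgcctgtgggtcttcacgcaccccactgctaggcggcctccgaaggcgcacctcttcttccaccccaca
Psmb5: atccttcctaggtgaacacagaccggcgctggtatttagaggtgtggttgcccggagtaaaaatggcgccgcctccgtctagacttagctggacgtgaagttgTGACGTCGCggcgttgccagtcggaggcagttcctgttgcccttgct
Psmb6: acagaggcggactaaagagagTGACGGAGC

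Such matches were not common among the members. Windows of the 250 bases before a start were available for 41 of the 49 members and were searched on both strands. The GAS letters TTCNNNGAA were found for Psmb8 and Psmg1 (4.88% of the 41 genes), against 7.02% of all 32851 windows. The antioxidant core TGACNNNGC was found for Psmb5, Psmb6, Psmc6, Psmd9 and Psmd12 (12.2%), against 10.2%. The interferon-stimulated response element, searched as GAAA, 2 bases of any kind and GAAA, was found for Psmb3, Psmd4 and Psmd9 (7.32%), against 2.98%, and those 3 genes had differences of 0.45, 0.17 and 0.37 on the log2 scale. The NF-kB element, searched as GGG, 2 bases of any kind and TTTCC, was found for 0 of the 41 genes, against 1.41% of windows. The GC box was found for 22 genes (53.7%), against 32.7%, and CCAAT for 15 (36.6%), against 33.9%. In all 11 patterns were searched, and the capitals mark only the 6 above. Of the other 5, the shorter GAAANNGAA was found for the same 3 genes as the longer form (7.32%, against 7.13%), a GAS form with a gap of 4 bases for Psmb10 (2.44%, against 5.85%), and GGGANTTCC, a variant of the NF-kB element, for 0 genes, against 1.43%. TATAAA was found for Psmb4, Psmb8, Psmd1 and Psmd6 (9.76%), against 12.4%, and the ETS core GGAAGT for 15 genes (36.6%), against 19.7%. A match describes letters only.

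The PA28 genes divided in the same way as the catalytic subunits. Psme1, the alpha chain of the interferon-inducible cap, stood at 210 CPM in marrow and 275 CPM in spleen, 1.31-fold higher in spleen (1.23 to 1.39). Psme2, its beta chain, stood at 131 CPM in marrow and 210 CPM in spleen, 1.60-fold higher in spleen (1.49 to 1.72). Psme3, the nuclear PA28 gamma that is not part of the interferon-inducible ring, went the other way, at 238 CPM in marrow and 166 CPM in spleen, 1.43-fold higher in marrow (1.34 to 1.53). Relative to Psme3, Psme1 was 1.87-fold higher in spleen than in marrow (1.71 to 2.05) and Psme2 2.30-fold (2.08 to 2.54). RefSeq also lists Psme2b, named as a copy of Psme2, which had no row in either table.

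The alpha ring forms the gate of the core particle. Its 7 genes had RPKM from 86.3 to 169 in marrow, with a median of 133, and from 61.9 to 121 in spleen, with a median of 88.5. Psma6 differed the most, at 150 CPM in marrow and 87.0 CPM in spleen, a 1.72-fold ratio (1.57 to 1.89). Psma1 followed at 171 and 107 CPM (1.61-fold). Psma7, Psma5, Psma2 and Psma4 had ratios of 1.46, 1.46, 1.38 and 1.27 towards marrow. Psma3 was nearly level at 133 and 124 CPM, and its interval (0.985 to 1.16) included equal levels.

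The 4 beta subunits without catalytic activity, Psmb1 to Psmb4, had RPKM from 105 to 173 in marrow and from 71.2 to 139 in spleen. Psmb2 had the largest ratio, at 92.4 CPM in marrow and 59.9 CPM in spleen (1.54-fold, 1.38 to 1.72). Psmb3 was at 107 and 78.0 CPM and Psmb4 at 168 and 129 CPM. Psmb1 was nearly level at 140 and 131 CPM (0.982 to 1.15). In the assembled particle every position holds the same number of subunits. That equality is of protein and need not hold for RNA. The summed RPKM of a catalytic pair is therefore set beside the alpha ring as a description of RNA only. The sum of Psmb8 and Psmb5 was 273 RPKM in marrow and 326 in spleen, that of Psmb9 and Psmb6 205 and 267, and that of Psmb10 and Psmb7 193 and 185. All 3 sums were above the median of the alpha ring in both libraries.

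**Figure D3:**
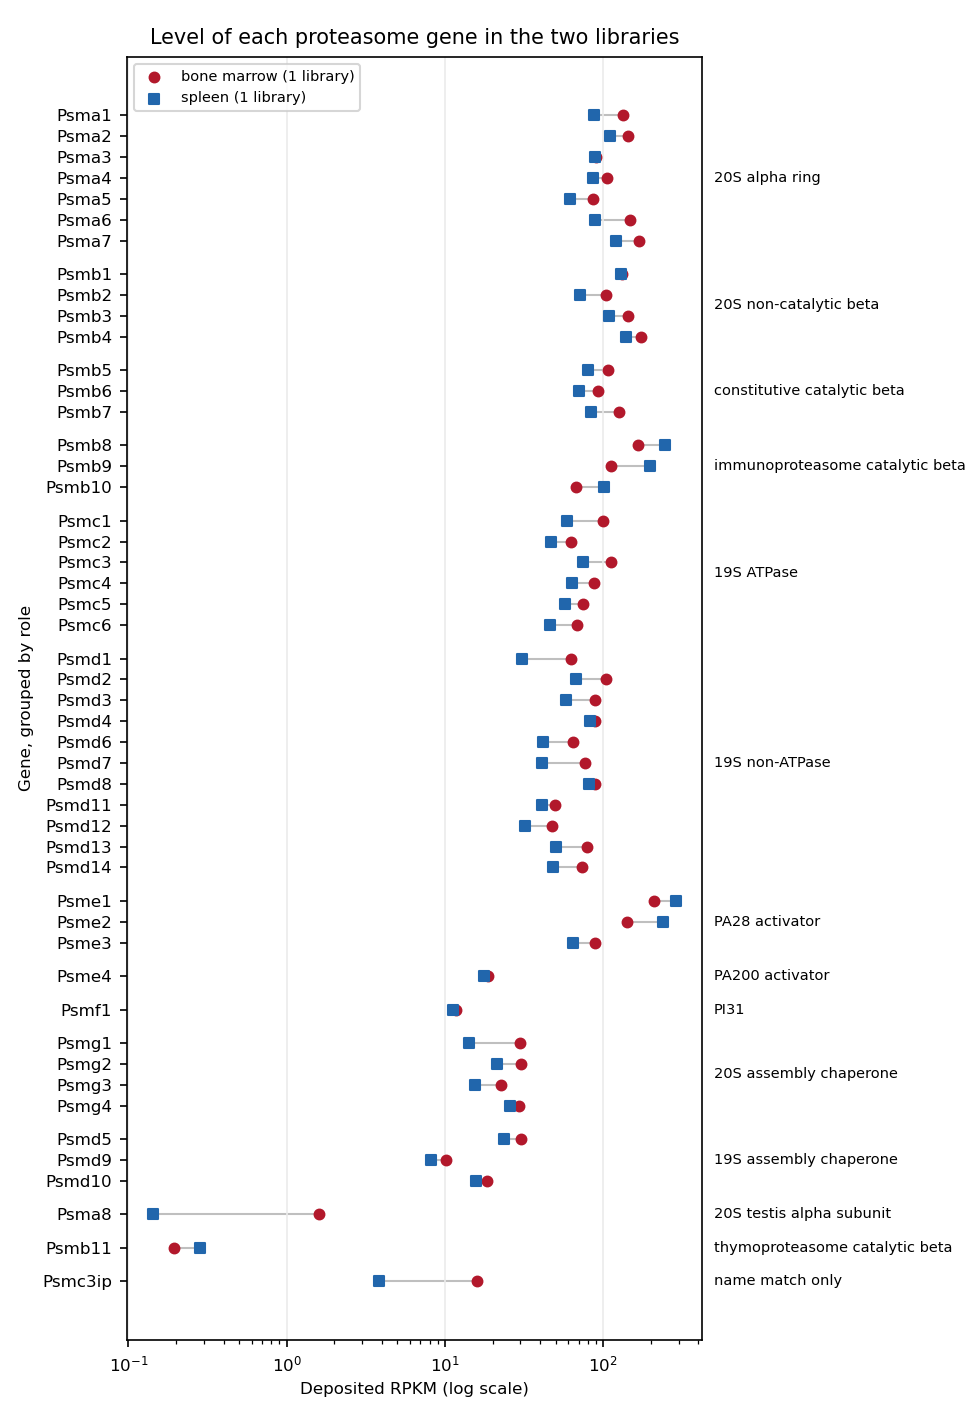
Deposited RPKM of each of the 49 members on a log axis, grouped by role, with red circles for the bone marrow library and blue squares for the spleen library. Core and regulatory subunits lie between 30.8 and 245 RPKM, assembly chaperones lie lower, between 8.11 and 30.2, and Psma8 and Psmb11 are the lowest members.

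The 17 regulatory particle genes were all higher in marrow, with a median difference of 0.66 against 0.47 for the 14 core genes among the 31. All 17 counting intervals lay above equal levels, against 38.2% of all measured genes and 47.0% of those of at least 50 CPM. The 6 ATPases, Psmc1 to Psmc6, form the ring that unfolds substrates. Psmc1 had the largest ATPase ratio, at 153 CPM in marrow and 86.5 CPM in spleen (1.77-fold, 1.62 to 1.94), and Psmc5 the smallest, at 96.9 and 71.9 CPM (1.35-fold, 1.21 to 1.495). Psmc3, Psmc6, Psmc4 and Psmc2 had ratios of 1.58, 1.53, 1.44 and 1.40.

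Among the 11 other regulatory particle subunits, the scaffold gene Psmd1 had the largest ratio, at 209 CPM in marrow and 98.0 CPM in spleen (2.13-fold, 1.96 to 2.31). It was the only one of the 31 structural subunits past 2-fold. Psmd7, the partner of the deubiquitinase Psmd14, came next at 127 and 64.4 CPM (1.97-fold, 1.78 to 2.19), just under the limit. Psmd14, which removes ubiquitin chains from substrates, was at 117 and 73.4 CPM (1.60-fold). Psmd2, a scaffold that docks shuttle factors, had the most reads of all members in marrow, 3121, and stood at 332 and 203 CPM (1.63-fold). Psmd13, Psmd6, Psmd3, Psmd12 and Psmd11, all parts of the lid, had ratios of 1.64, 1.62, 1.61, 1.54 and 1.26.

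The smallest ratios of the regulatory particle belonged to Psmd4 and Psmd8. Psmd4, a receptor for ubiquitin chains, was at 114 CPM in marrow and 101 CPM in spleen (1.12-fold, 1.03 to 1.23). Psmd8, a lid subunit, was at 139 and 121 CPM (1.15-fold, 1.06 to 1.25). Their levels per length, 88.7 and 89.1 RPKM in marrow, were close to that of Psmd3 at 89.2, which had a ratio of 1.61. Whether the ratio followed the level over the subunits was not tested.

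The assembly chaperones, which build the particles and then leave them, had lower levels than the subunits. The 7 genes ranged from 10.1 to 30.2 RPKM in marrow and from 8.11 to 25.7 RPKM in spleen. All had higher CPM in marrow, with a median difference of 0.40. Psmg1, which with Psmg2 starts the assembly of the alpha ring, was at 30.9 CPM in marrow and 14.2 CPM in spleen (2.18-fold, 1.76 to 2.72). Psmg2 was at 32.7 and 22.2 CPM (1.47-fold, 1.22 to 1.78), so the partners had different ratios with overlapping intervals. Psmg3 and Psmg4, the later-acting pair, had ratios of 1.53 (1.20 to 1.96) and 1.19 (0.934 to 1.52). Psmd5, Psmd9 and Psmd10, chaperones of the regulatory particle base, had ratios of 1.32, 1.31 and 1.22.

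The remaining caps and regulators differed little. Psme4, the PA200 cap linked to histone degradation, was at 124 CPM in marrow and 111 CPM in spleen (1.12-fold, 1.03 to 1.22). Psmf1, the PI31 regulator, was at 42.5 and 38.8 CPM (1.10-fold, 0.945 to 1.27). The tissue-specific core subunits were near the limit of detection. Psmb11, the catalytic subunit of thymic cortical epithelium, had 8 reads in marrow and 10 in spleen, which covered 5.09% and 4.47% of its length. Psma8, the alpha subunit of male germ cells, had 26 reads in marrow and 2 in spleen, an 11.7-fold ratio (2.93 to 102). Psmc3ip had 151 and 31 reads, a 4.38-fold ratio (2.96 to 6.67).

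Other components and cofactors of the proteasome, which do not carry a Psm name, had higher CPM in marrow for all 11 genes on the list, with a median difference of 0.22. At least 2-fold higher in marrow were 2 of them (18.2%), near the 14.1% of all measured genes, and 0 were in spleen. The deubiquitinases Uchl5 and Usp14, which trim chains at the regulatory particle, were at 102 and 105 CPM in marrow and at 34.4 and 49.4 CPM in spleen. Pomp, the maturation factor of the core particle, was nearly level at 91.2 and 86.8 CPM. Shfm1, the smallest lid subunit, was at 156 and 82.0 CPM, and Adrm1, a ubiquitin receptor, at 102 and 87.3 CPM. AI314180, which encodes the proteasome adaptor ECM29, was the most abundant of the 11 at 187 and 131 CPM.

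Genes of ubiquitin supply and delivery were mixed. Of 17 genes 0 passed 2-fold in either direction, and the median difference was 0.13. Uba1, the main ubiquitin-activating enzyme, was at 600 CPM in marrow and 387 CPM in spleen, and Vcp, the segregase that extracts substrates, at 629 and 373 CPM. Rps27a, which encodes ubiquitin fused to a ribosomal protein, was at 864 CPM in marrow and 893 CPM in spleen. The list of NRF1 and stress regulators was near level, with a median difference of -0.10 over 10 genes. Nfe2l1, which encodes NRF1, was at 133 CPM in marrow and 145 CPM in spleen, and Stat3, the most abundant of the 10, at 269 and 282 CPM. Mafg, a small Maf partner of NRF1 and NRF2, was the only gene of that list past 2-fold on the log2(CPM + 1) scale, at 42.1 and 16.2 CPM. Maff, another small Maf protein, had 29 and 54 reads, a plain CPM ratio of 2.07 towards spleen (1.30 to 3.37).

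Genes of class I presentation, with the regulator Nlrc5 among them, went both ways. Of 12 genes, 2 passed 2-fold towards spleen, Nlrc5 and H2-K1, against 14.6% of all measured genes. Towards marrow 1 did, Calr (8.33%, against 14.1%), so the counts alone do not set the list apart. The median difference was -0.69. Nlrc5, the transactivator of class I genes and of Psmb9, Tap1 and B2m, was at 97.2 CPM in marrow and 306 CPM in spleen. H2-K1 was at 1135 and 2571 CPM and B2m at 1341 and 2121 CPM. The general chaperones of the endoplasmic reticulum on the list went the other way, with Calr at 1821 CPM in marrow and 677 CPM in spleen. Interferon-gamma signalling had 13 of 16 genes past 2-fold towards spleen, against 14.6% of all measured genes, and 0 towards marrow, with a median of -1.27. Jak1, the most abundant of them, was at 368 and 685 CPM and Irf1 at 105 and 262 CPM. The immunoproteasome and PA28 genes, at -0.73 to -0.38, thus had smaller differences than most of that list.

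The shift of the structural subunits towards marrow was also seen in other housekeeping complexes. The 8 genes of the CCT chaperonin, which folds actin and tubulin, were all higher in marrow, with a median difference of 0.67 and 0 past 2-fold. The 76 mitochondrial ribosomal protein genes had a median of 0.47, also with 0 past 2-fold. The spread among genes (SD of the log2 difference) was 0.23 for the 31 structural proteasome subunits, 0.16 for CCT and 0.29 for mitochondrial ribosomal proteins, against 1.14 over all measured genes. Their median reads in marrow were 1192, 3261 and 337.5 in that order, against 293. Counting error widens the spread of genes with few reads, and no spread was computed for genes of matched level.

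**Figure D4:**
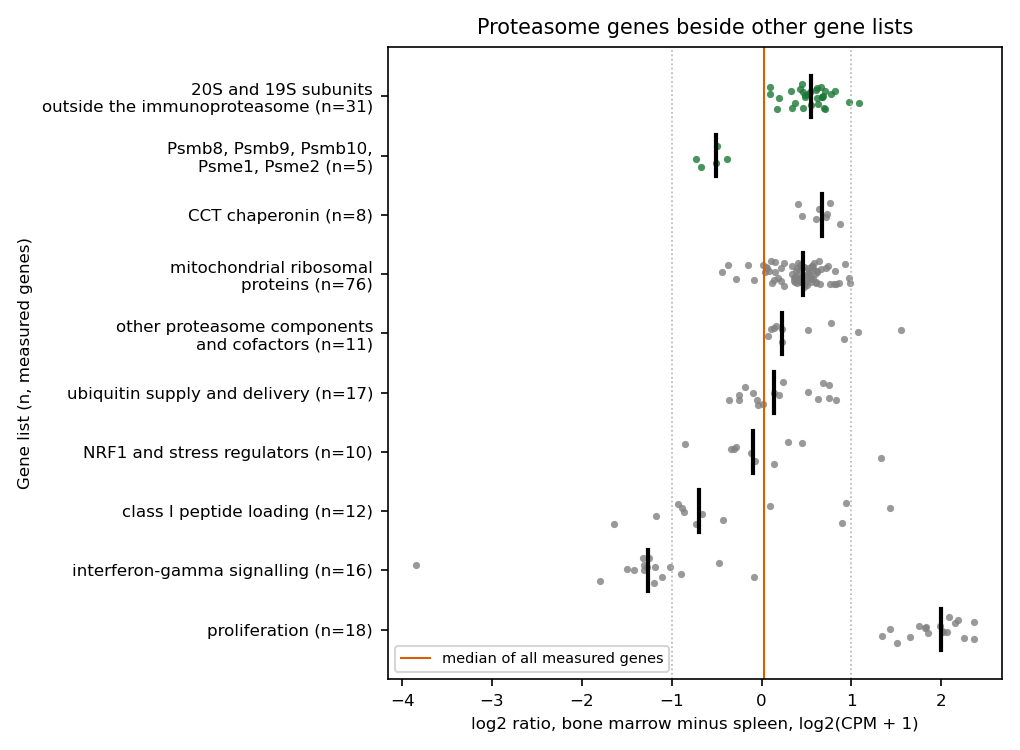
Difference between the libraries (bone marrow minus spleen, log2(CPM + 1)) for each measured gene of 10 lists, 1 point per gene, with black bars for list medians. The orange line is the median of all measured genes (0.03) and dotted lines mark 2-fold. The structural proteasome subunits (median 0.54) lie with CCT (0.67) and the mitochondrial ribosomal proteins (0.47), and the immunoproteasome and PA28 genes (-0.51) lie on the side of class I loading (-0.69) and interferon-gamma signalling (-1.27).

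Other differences between the libraries moved with both sides of the pattern, and their part in it was not tested. All 18 proliferation genes were at least 2-fold higher in marrow, with a median difference of 1.99. Top2a was at 862 CPM in marrow and 192 CPM in spleen, and Mki67 at 848 and 298 CPM. Macrophage markers had a read in both libraries for 16 of 16 genes, although Marco had 1 read in marrow and 94 in spleen. Their summed level was 605 CPM in marrow and 1350 in spleen. At least 2-fold higher in spleen were 10 of the 16, against 14.6% of all measured genes, and 0 were in marrow. Spic was at 4.15 and 38.2 CPM, Cd5l at 8.51 and 71.8 CPM and Mertk at 4.04 and 27.1 CPM. Csf1r was at 197 and 364 CPM, and Emr1, which encodes F4/80, at 53.1 and 142 CPM. The 16 granulocyte markers with a row summed to 48810 and 2249 CPM, with 15 of them at least 2-fold higher in marrow. The 7 stem and progenitor markers summed to 1469 and 372 CPM, with 5 at least 2-fold higher in marrow. Flt3, also on the dendritic cell list below, went the other way at 71.1 and 118 CPM. The 6 megakaryocyte markers summed to 297 and 18.1 CPM, with 5 at least 2-fold higher in marrow and Ppbp near level at 17 and 19 reads.

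Markers of lymphocytes and dendritic cells leaned to spleen, the library with more immunoproteasome reads, and their part in that difference was not tested. The 11 B cell markers summed to 445 CPM in marrow and 5232 CPM in spleen, with all 11 at least 2-fold higher in spleen. The 13 T cell markers with a row summed to 276 and 1906 CPM, with all 13 at least 2-fold higher in spleen. The 10 dendritic cell markers summed to 181 and 1217 CPM, with 9 at least 2-fold higher in spleen. The 8 NK cell markers went both ways and summed to 381 and 410 CPM. At least 2-fold higher in spleen were 3 of them, and 1 was in marrow, Nkg7, at 195 and 91.4 CPM. The 8 erythroid markers summed to 331 and 196 CPM, of which Tfrc made up 248 and 130 CPM. In that list 1 marker was at least 2-fold higher in marrow, Gata1, and 1 in spleen, Alas2.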

How the data were processed

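RNA-seq libraries of sorted macrophages from leukaemic mice were compared, 1 from bone marrow and 1 from spleen. The authors deposited 1 table per library, with read counts (unique placements only, per the file headers) beside each gene's Entrez identifier. The deposited RPKM values divide those counts by gene length and library total, and a further deposited column gives the percent of the length that reads cover. The sources used here do not name the aligner, build or annotation. Counts summed to the header totals with a smallest value of 1, so a missing gene was given 0 reads, and genes were joined on the Entrez identifier. The RPKM values were recomputed within 6.7e-06 percent.

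CPM were computed with edgeR's TMM factors (0.977 in the marrow library and 1.02 in the spleen library; edgeR 4.0.16 under R 4.3.3), and a pseudocount of 1 CPM was used on the log2 scale. A gene was measured if either library reached 1 CPM and 10 reads, which all 49 members did. Psmb11 met it at the spleen value only and Psma8 at the marrow value only. Ratios of CPM have exact conditional binomial 95% intervals, pair shares exact Clopper-Pearson intervals, pair ratios exact conditional intervals, and the gap of means a normal interval from the read counts. PCR reads are not independent molecules. The procedure was run on simulated counts that held counting error only, with far fewer changed genes than these libraries have. That run could not test spread between mice or preparations. Alternatives included DESeq2 1.42.0 size factors. No p-value was computed, because 1 library per tissue leaves no spread. The planned naming rule took every member, and from each pathway list the genes past 2-fold and the 2 most abundant, of which not all are named, and other list genes were named after their values were seen. The 50 CPM comparison and the promoter motifs (11 searched, 6 marked in the sequences) were also chosen then, as were the alternatives for list medians.

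Members, roles and lists were chosen with earlier results of these data known. Of the listed symbols, Paaf1 matched no identifier and was not used. The markers Ly6g and Trbc2 had no row in either table, and since the annotation is not named they were not read as 0. Promoter sequences were matched by Entrez identifier and come from RefSeq (GRCm38.p6). Windows of Psma8, Psmb1, Psmb2, Psmb7, Psmc3, Psmd3, Psmd7 and Psmg2 were not used here. RefSeq names 7 copies of members (6 pseudogenes and Psme2b), and 0 of them had a row, so reads shared with copies may be missing from Psma5, Psmb5, Psmb6, Psmb7 and Psme2.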

Additional observations from a re-analysis of the deposited data

How the results depend on the processing

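The direction of every structural subunit and of the 5 immunoproteasome and PA28 genes was the same under each other scaling. These were DESeq2 size factors, library totals alone, TMM factors computed without markers of other cell types, and the deposited RPKM, which also uses library totals. Pseudocounts of 0.1 and 5, no floor and a floor of 10 CPM were also run. They cannot change a direction, because both libraries get the same pseudocount and a floor only leaves genes out. The median difference of the members ranged from 0.42 to 0.49 and the gap between immunoproteasome and standard subunits from -1.11 to -1.06. The count of members at least 2-fold higher in bone marrow was 2 with a pseudocount of 5. That setting lowers the ratio of genes with few reads. A 1.5-fold rule gave 18 of the 49 members, against 24.7% of all measured genes. Psma8 and Psmc3ip were among the 18, and a 4-fold rule gave 0. The count higher in spleen was 2 with a 1.5-fold rule, Psmb9 and Psme2, against 25.1% of all measured genes. Without division by gene length, the share of reads in bone marrow was 68.3% for Psmb8, 48.6% for Psmb9 and 41.5% for Psmb10, and in spleen 81.0%, 68.6% and 61.1%, because the genes of a pair differ in length. Each share remained higher in spleen. No paired analysis was possible because each tissue had 1 library. Depth limits Psmb11 and Psma8, with at most 10 and 26 reads in a library.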
